A study of Mus musculus with 2 samples.

Results

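The 51 genes described here are those of the Wnt pathway: 19 Wnt ligands, the ligand-modifying enzyme gene Porcn, 12 receptors and co-receptors (Fzd1 to Fzd10, Lrp5 and Lrp6), 8 secreted inhibitors, 3 genes of the cytoplasmic core, 4 genes of the TCF/LEF transcription factors and 4 transcriptional targets. They were chosen by name, as every non-control probe whose gene name in the scanner files was 1 of the 51, and they came to 64 probes of 39429, or 51 names of 31829. RNA was compared between 3 monoclonal lines made from ZHBTc4 mouse embryonic stem (ES) cells. In ZHBTc4 cells both endogenous Oct4 alleles are inactivated, and Oct4 is supplied by a transgene that is repressed when doxycycline is added, so all the clones share this background and this treatment. The clones carried pCAG-IP/Nr5a2-EGFP (clone 26), pCAG-IP/Oct4-EGFP (clone 9) or pCAG-IP/EGFP (clone 2-5), were grown feeder-free on gelatin with LIF (1000 IU/ml) and 15% serum, and were given doxycycline before harvest for a time not stated in the sources used here.

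RNA was read on 2 two-colour oligonucleotide arrays. The Nr5a2-EGFP clone was labelled with Cy5 on both. Cy3 held the EGFP clone on the first array, called the EGFP array here, and the Oct4-EGFP clone on the second, called the Oct4 array. Each transgene was represented by 1 clone and each pair of clones by 1 array with no dye swap. A difference between clones therefore cannot be told apart from clonal variation or from a dye effect of a probe, and a test between clones could not be made. Genes are described by size alone: a log2 ratio of at least 1 is called at least 2-fold higher, and of at most -1 at least 2-fold lower. The comparison of Oct4-EGFP with EGFP is indirect: the log2 ratio over Oct4-EGFP is subtracted from that over EGFP, which cancels a dye effect of a probe. The only repeated reading was that of the Nr5a2-EGFP clone, whose log2 levels on the EGFP array minus those on the Oct4 array had an SD of 0.30 over 25463 genes, and 1.71% of these genes differed 2-fold or more.

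The clones are named here as the labels name them. The probes of Nr5a2 read lower in the Nr5a2-EGFP clone, at log2 ratios of -0.92 and -0.39 over EGFP and -1.14 and -0.63 over Oct4-EGFP. The probe of Pou5f1, which encodes Oct4, had a processed signal of 28.8 in the Nr5a2-EGFP clone, not well above background, against 116 in the Oct4-EGFP clone, and 104 against 118 in the EGFP clone. Its log2 ratios were -0.90 over Oct4-EGFP and -0.12 over EGFP, with 0.78 for Oct4-EGFP over EGFP, and its Nr5a2-EGFP readings lay 0.80 apart. Whether these probes lie in the stretch that each transgene carries was not looked up, so they are no check of the labels.

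Wnt proteins are lipid-modified in the endoplasmic reticulum by Porcn, are secreted, and bind Frizzled receptors together with the co-receptors Lrp5 or Lrp6. In the canonical pathway this stops the complex of Axin and Apc from marking beta-catenin (Ctnnb1) for destruction, and beta-catenin then joins TCF/LEF factors on DNA at targets such as Axin2 and Sp5. In mouse ES cells the pathway is known for its part in self-renewal, where beta-catenin relieves repression by Tcf7l1, and in the embryo for its part in forming the primitive streak and in building the placenta.

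The sequences of the probes behind the main values are given 5′ to 3′, as the first 30 of 60 bases of each probe, with the mm9 position of the whole probe as the files give it. They are shown because each value is a hybridisation to 1 such stretch of the transcript, because the 2 probes of Fzd5 and of Fzd7 gave different ratios, and because 1 of the 2 probes of Axin2 was not well above background. Which exon or untranslated part each probe lies in was not looked up, since no mm9 annotation was used here.
Dkk1 (chr19:30621424-30621483, minus strand): tactgtgttgtaaatcctcagtgtggcact
Sfrp2 (chr3:83577864-83577923, plus strand): tcggcatctaagtcttcaaacatttcgttg
Wnt7a (chr6:91314653-91314712, minus strand): cctcagcggtgggtcagtcagtgtctcaca
Porcn (chrX:7770977-7771036, minus strand): ctgccgtctcccttttttatatgcagtttg
Sp5 (chr2:70315688-70315747, plus strand): cagagctacagcatggtacgtttctgtaaa
Axin2, brighter probe (chr11:108812034-108812093, plus strand): cttggtacaataattattgtaattaagaga
Axin2, dimmer probe (chr11:108803927-108803986, plus strand): tcctgggggaacagattattattgctactc
Fzd5, brighter probe (chr1:64781972-64782030, minus strand): acggggacccagtggctggcatctgctatg
Fzd5, dimmer probe (chr1:64779479-64779538, minus strand): aatttcagtggcttccacaagaccttgtac
Fzd7, brighter probe (chr1:59543192-59543251, plus strand): aagggaaggtgaacttcaaagtgattctgg
Fzd7, dimmer probe (chr1:59541367-59541426, plus strand): agccccgactttacagtcttcatgatcaag

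The 250 bases before the annotated start site are given for 3 genes, from RefSeq on GRCm38.p6, a later build than that of the probe positions. Dkk1 and Sp5 are shown because their ratios were among the largest of the 51 genes and their windows hold a TCF/LEF motif, and Sfrp2 because its window was the only one to hold an octamer motif. Capitals mark the motif.
Dkk1 (chr19:30549497-30549746, minus strand): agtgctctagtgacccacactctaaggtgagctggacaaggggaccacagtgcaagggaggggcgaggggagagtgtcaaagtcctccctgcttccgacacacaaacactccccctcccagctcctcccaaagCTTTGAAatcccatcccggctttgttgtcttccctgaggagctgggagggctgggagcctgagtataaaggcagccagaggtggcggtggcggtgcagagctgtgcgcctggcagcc
Sp5 (chr2:70474673-70474922, plus strand): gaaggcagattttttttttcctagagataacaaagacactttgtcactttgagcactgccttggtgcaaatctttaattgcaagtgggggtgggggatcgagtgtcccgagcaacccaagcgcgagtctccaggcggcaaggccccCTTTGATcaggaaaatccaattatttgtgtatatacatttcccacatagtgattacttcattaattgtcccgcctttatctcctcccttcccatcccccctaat
Sfrp2 (chr3:83766071-83766320, plus strand): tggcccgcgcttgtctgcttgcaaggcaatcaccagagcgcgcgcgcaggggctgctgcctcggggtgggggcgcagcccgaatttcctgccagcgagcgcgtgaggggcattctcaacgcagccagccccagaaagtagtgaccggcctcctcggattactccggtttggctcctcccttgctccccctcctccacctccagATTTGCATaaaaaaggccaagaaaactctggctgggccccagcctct

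The motifs searched were CTTTGAT and CTTTGAA for TCF/LEF factors, TCAAGGTCA, TCAAGGCCA, CCAAGGTCA and CCAAGGCCA for receptors of the NR5A family, to which Nr5a2 belongs, and ATGCAAAT for octamer factors such as Oct4. Both strands were searched, from 250 bases before to 50 after each start site, and no motif contains another. RefSeq gave 43 such windows for 34 of the 51 genes. A TCF/LEF motif was present in 4 of the 43, against 8.65% of all 32851 windows: in Dkk1 (starting at -117 from the start site), Sp5 (-104), Wnt5b (-71) and Wnt11 (-51). Its share, 9.3%, was near that of all windows. The NR5A motif was present in 0 of the 43, against 2.22% of all windows, and the octamer in 1, that of Sfrp2 (-47), against 1.74%. A match is a stretch of letters and not a measured binding site.

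Of the 51 genes, 44 were well above background in all 4 readings and 7 in none: the ligand genes Wnt2b, Wnt3, Wnt3a and Wnt10a, the inhibitor genes Dkk2 and Wif1, and Lgr5, an R-spondin receptor gene and Wnt target. No gene passed in some readings only. In the comparison of Nr5a2-EGFP with EGFP, 3 of the 44 were at least 2-fold higher, where 3.35% of all genes were, and 4 were at least 2-fold lower, where 5.07% were (8.41% in either direction). Against Oct4-EGFP, 3 were higher in the Nr5a2-EGFP clone (4.55% of all genes) and 8 lower (7.11%, or 11.7% in either direction). In the indirect comparison of Oct4-EGFP with EGFP, 6 were higher (6.4%) and 5 lower (5.78%, or 12.2% in either direction). The medians of the 44 log2 ratios were 0.05, 0.05 and 0.21, beside 0.03, 0.01 and 0.02 for all genes measured.

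At their brightest probes, 18 of the 44 were at least 2-fold apart in at least 1 comparison, where 21.1% of the 25151 genes measured in all 3 were. A further 25 were within 2-fold in all, and Tcf7l2, saturated at that probe, could not be placed. The comparisons share the Nr5a2-EGFP clone, so they are not independent of each other. Of the 18, the Nr5a2-EGFP clone read highest for 4, the Oct4-EGFP clone for 9 and the EGFP clone for 5. Over all 5295 genes chosen by the same size rule, the Nr5a2-EGFP clone read highest for 23.5%, the Oct4-EGFP clone for 41.7% and the EGFP clone for 34.8%. The 9 genes highest in the Oct4-EGFP clone were Porcn, the receptor genes Fzd4, Fzd5, Fzd8, Fzd9 and Fzd10, and the inhibitor genes Sfrp1, Sfrp2 and Sfrp4. Each clone read lowest for 6 of the 18, where over all 5295 genes the Nr5a2-EGFP clone read lowest for 35.6%, the Oct4-EGFP clone for 34.9% and the EGFP clone for 29.5%. The 6 lowest in the Nr5a2-EGFP clone were Porcn, Fzd8, Fzd10, Dkk3, Sfrp1 and Sfrp2. The 6 lowest in the Oct4-EGFP clone were the inhibitor gene Dkk1, the beta-catenin gene Ctnnb1, the TCF/LEF genes Tcf7l1 and Lef1, and the targets Axin2 and Sp5. The 6 lowest in the EGFP clone were Wnt7a, Wnt7b, Fzd4, Fzd5, Fzd9 and Sfrp4. Some of these places rest on differences below the SD of 0.30 of the repeated readings. Over EGFP, Fzd8, Sp5, Fzd5, Ctnnb1 and Porcn had -0.01, -0.05, 0.11, -0.16 and -0.24. Wnt7b had 0.04 for Oct4-EGFP over EGFP. With the Nr5a2-EGFP level of the other array, Fzd8, Porcn and Ctnnb1 changed sign over EGFP, to 0.19, 0.20 and 0.31.

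The clones also differed in cell type markers, whose part in the Wnt values was not tested. In bulk RNA, fewer cells of a type and less RNA per cell cannot be told apart. Of 15 ES cell markers, 11 were at least 2-fold lower and 0 higher in the Nr5a2-EGFP clone than in the Oct4-EGFP clone, led by Esrrb (-3.72) and Nr0b1 (-3.25), and their processed signals, saturated probes included, summed to 160981 against 398842. On the EGFP array 1 was higher and 2 lower of 14, and the sums were 192410 in the Nr5a2-EGFP clone and 245793 in the EGFP clone. Of 14 measured trophoblast markers, 12 were at least 2-fold higher and 0 lower in the Nr5a2-EGFP clone than in the Oct4-EGFP clone, led by Cdx2 (4.48) and Rhox6 (3.52), with sums of 150863 against 32820. On the EGFP array 2 were higher and 1 lower, and the sums were 182807 in the Nr5a2-EGFP clone and 198669 in the EGFP clone. For Oct4-EGFP over EGFP, 9 ES cell markers were higher and 0 lower, and 0 trophoblast markers were higher and 12 lower.

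The repeated readings of the Nr5a2-EGFP clone disagreed on ES cell markers. They differed 2-fold or more for 5 of 15, against 1.71% of all genes: the EGFP array minus the Oct4 array was -2.93 on the log2 scale for Fgf4, -1.45 for Esrrb, -1.42 for Nr0b1, -1.34 for Prdm14 and 1.14 for Zfp42. Of the 14 trophoblast markers, 0 were that far apart. The lists were therefore also counted with the Nr5a2-EGFP level of the other array, an alternative added after the data were seen. Over EGFP, 3 ES cell markers were then higher and 0 lower: Esrrb and Fgf4, the 2 lower ones as reported, had -0.85 and 0.73. Over Oct4-EGFP 10 of 15 were lower and 0 higher, and for Oct4-EGFP over EGFP, from the Cy3 levels alone, 10 were higher and 0 lower. Of the trophoblast markers, 1 was then higher and 3 lower over EGFP, and 12 higher and 0 lower over Oct4-EGFP.

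Of other cell types, primitive endoderm markers summed to 10749 in the Nr5a2-EGFP clone against 28741 in the Oct4-EGFP clone, and to 10579 against 10703 in the EGFP clone, with 1 higher and 1 lower of 7 in the first pair and 0 in the second. The laminin gene Lama1 alone had 7422 against 26793 in the first pair, and without it the sums were 3327 in the Nr5a2-EGFP clone against 1948 in the Oct4-EGFP clone. Fibroblast markers summed to 8084 in the Nr5a2-EGFP clone against 13585 in the Oct4-EGFP clone, and to 8621 against 9730 in the EGFP clone, with 0 higher and 1 lower of 6 in the first pair (Pdgfrb, -1.28) and 0 in the second. Without Thy1 and Pdgfrb, left out after their values were seen, as Lama1 was, the sums were 1920 in the Nr5a2-EGFP clone against 1549 in the Oct4-EGFP clone. Elf5, a defining trophoblast stem cell gene, was not well above background in any reading, nor were T, Mixl1, Gsc, Mesp1 and Evx1 of the 8 primitive streak markers, or Postn and Lum of the 8 fibroblast markers. The streak markers Eomes, Tbx6 and Fgf8 were well above background in every reading. Eomes and Tbx6 were within 2-fold in every comparison. Fgf8 was saturated and made up most of the streak sums. These were 54628 in the Nr5a2-EGFP clone against 83916 in the Oct4-EGFP clone, and 70370 against 90184 in the EGFP clone.

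**Figure D1:**
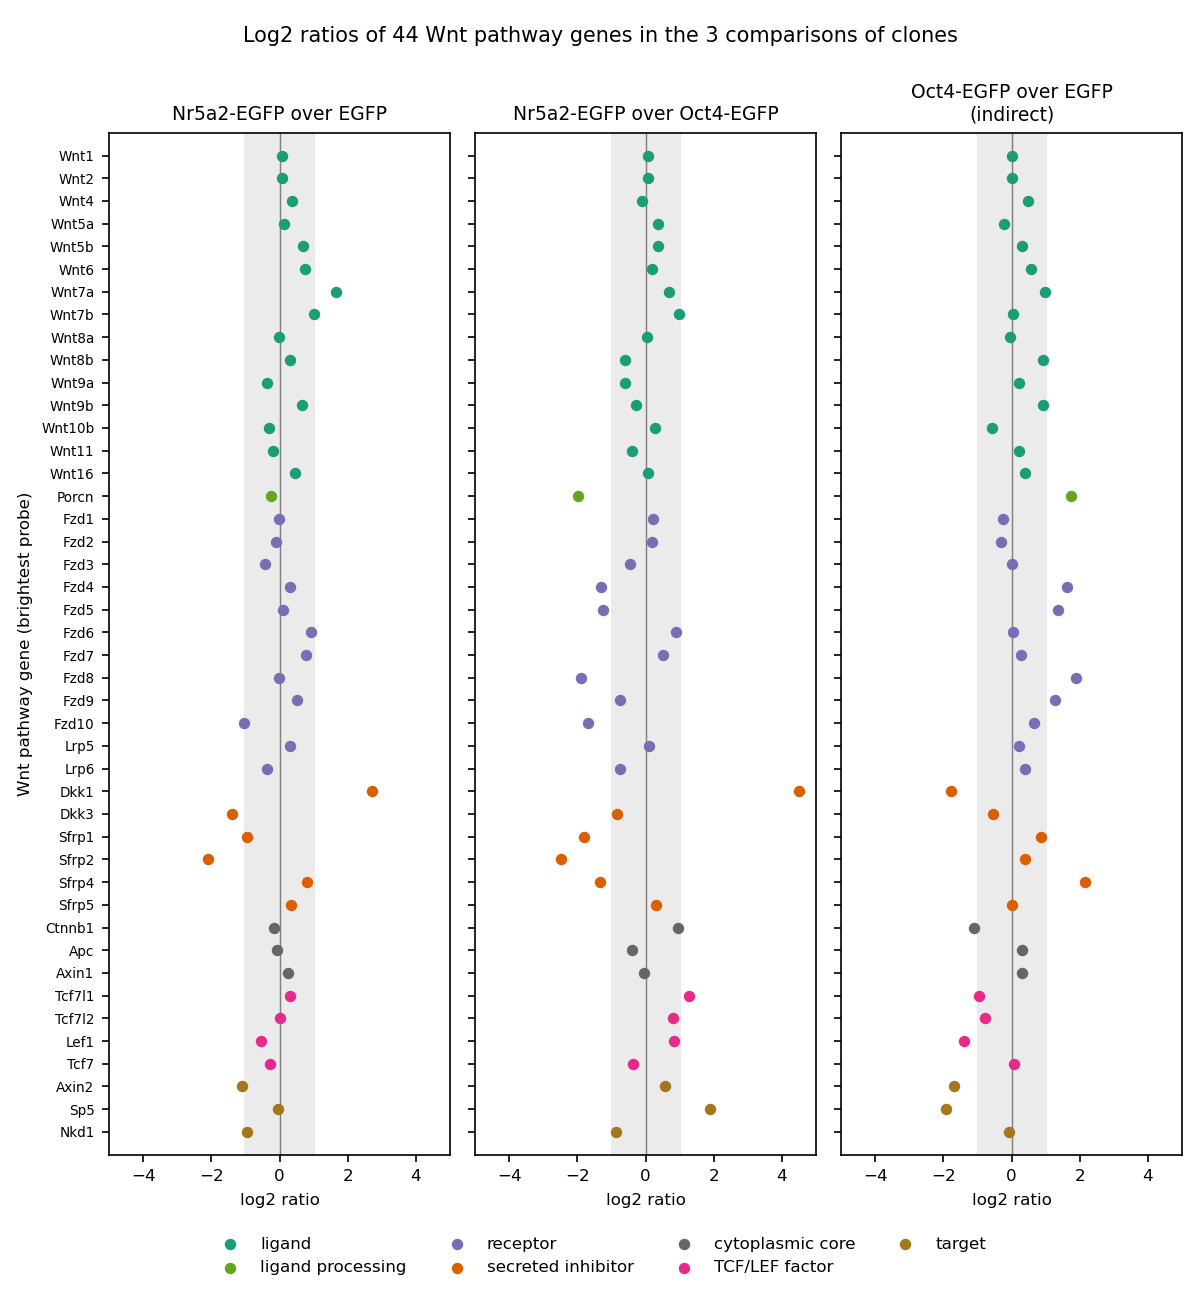
Log2 ratios (horizontal axis) of the 44 Wnt pathway genes measured, by role, each point the brightest probe of a gene, for Nr5a2-EGFP over EGFP, Nr5a2-EGFP over Oct4-EGFP and, indirectly, Oct4-EGFP over EGFP. The grey band spans less than 2-fold in either direction, and 1 array stands behind each direct ratio. Tcf7l2, saturated in the Nr5a2-EGFP clone, is drawn at its normalized value. Dkk1 lies farthest to the right in the first and second panels, at 2.70 and 4.50, and the ligands lie inside the band in both panels that involve the Oct4-EGFP clone.

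Of the 15 Wnt ligand genes measured, the Nr5a2-EGFP clone read at least 2-fold above the EGFP clone for 2, Wnt7a and Wnt7b, and below it for 0, where 3.35% and 5.07% of all genes were. In either comparison with the Oct4-EGFP clone 0 of 15 were at least 2-fold apart, where 11.7% (Nr5a2-EGFP over Oct4-EGFP) and 12.2% (Oct4-EGFP over EGFP) of all genes were. Those counts of 0 depended on the processing for Wnt7a, Wnt7b, Wnt8b, Wnt9b and Wnt10b. The counts over EGFP depended on it too. With the Nr5a2-EGFP level of the other array, Wnt5b had 1.35, Wnt10b -1.19 and Wnt7b 0.86 over EGFP. Wnt9b had 1.00 there with the software's ratio. Wnt7a, known in the mouse for patterning the limb and the female reproductive tract, had a processed signal of 1254 in the Nr5a2-EGFP clone against 325 in the EGFP clone, and 1162 against 669 in the Oct4-EGFP clone. The log2 ratios were 1.67 over EGFP and 0.69 over Oct4-EGFP, with 0.98 for Oct4-EGFP over EGFP, so that the Nr5a2-EGFP clone read highest and the EGFP clone lowest. The indirect ratio passed the threshold with the software's ratio, the value table and median centring. Processed signals are the scanner software's own, comparable within an array and not between genes.

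Wnt7b, which the mouse placenta needs for the chorion to join the allantois, had 372 in the Nr5a2-EGFP clone against 123 in the EGFP clone, and 316 against 121 in the Oct4-EGFP clone. Its log2 ratios were 1.01 and 0.97, close to the threshold on either side of it, and 0.04 for Oct4-EGFP over EGFP. The Nr5a2-EGFP clone thus read higher than both others by about the same amount. Over EGFP it had 0.86 with the other reading of the Nr5a2-EGFP clone, 1.59 with the software's ratio and 1.58 with the value table. Over Oct4-EGFP it passed the threshold under 4 alternatives, at 1.39 with the software's ratio, 1.40 with the value table, 1.13 with the other reading and 1.03 with median centring.

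The other 13 ligand genes lay within 2-fold in every comparison, from -0.37 (Wnt9a) to 0.74 (Wnt6) over EGFP and from -0.60 (Wnt8b) to 0.37 (Wnt5b) over Oct4-EGFP. Wnt4, Wnt5a, Wnt11 and Wnt16 had 0.37, 0.13, -0.19 and 0.45 over EGFP, and -0.10, 0.37, -0.40 and 0.07 over Oct4-EGFP. Wnt1, Wnt2 and Wnt8a, ligands of the canonical pathway, were within 0.10 of 0 in both direct comparisons at their brightest probes. The dimmer probe of Wnt1 had 0.19 over EGFP and -0.35 over Oct4-EGFP. Wnt2 was dim, with processed signals from 45.9 to 63.7. Wnt8b and Wnt9b came nearest to the threshold, both at 0.92 for Oct4-EGFP over EGFP, and had 0.32 and 0.65 for Nr5a2-EGFP over EGFP. With the software's ratio both passed it in the indirect comparison, and Wnt9b also over EGFP. The dimmer probe of Wnt8b was not well above background in any reading. Wnt5b, a ligand of non-canonical signalling, had 24325 in the Nr5a2-EGFP clone against 15737 in the EGFP clone, and 29028 against 25542 in the Oct4-EGFP clone. Its log2 ratios were 0.68 over EGFP and 0.37 over Oct4-EGFP. With the other Nr5a2-EGFP reading Wnt5b passed the threshold over EGFP, at 1.35. From the Cy3 levels alone it had 0.98 for Oct4-EGFP over EGFP. Wnt10b was the ligand gene whose readings of the Nr5a2-EGFP clone lay farthest apart, by 0.88 on the log2 scale, and its indirect ratio of -0.58 was -1.46 from the Cy3 levels alone.

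Porcn, the enzyme gene on which Wnt secretion depends, was lower in the Nr5a2-EGFP clone than in the Oct4-EGFP clone. Its processed signal was 588 in the Nr5a2-EGFP clone against 2440 in the Oct4-EGFP clone, and 434 against 516 in the EGFP clone. The log2 ratios were -1.99 over Oct4-EGFP (3.98-fold lower) and -0.24 over EGFP, and 1.75 for Oct4-EGFP over EGFP. The Oct4-EGFP clone stood apart from both others.

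Among the 12 receptor genes at their brightest probes, the Nr5a2-EGFP clone read at least 2-fold below the Oct4-EGFP clone for 4 and higher for 0. The 4 were Fzd4, Fzd5, Fzd8 and Fzd10, and the shares of all genes were 7.11% and 4.55%. The Oct4-EGFP clone read at least 2-fold above the EGFP clone for 4 (Fzd4, Fzd5, Fzd8 and Fzd9) and lower for 0. There the shares of all genes were 6.4% and 5.78%, and the dimmer probes of Fzd2 and Fzd7 had -1.44 and -1.31. Against EGFP, the Nr5a2-EGFP clone read at least 2-fold lower for Fzd10 alone and higher for 0 at the brightest probe of each gene. The shares of all genes were 5.07% and 3.35%. Frizzled receptors share a cysteine-rich domain that binds Wnts, and Fzd4 also binds the ligand Norrin.

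Fzd8 had a processed signal of 137 in the Nr5a2-EGFP clone against 655 in the Oct4-EGFP clone, and 100 against 106 in the EGFP clone, with log2 ratios of -1.89 and -0.01. Fzd4 had 123 in the Nr5a2-EGFP clone against 377 in the Oct4-EGFP clone, and 102 against 46.7 in the EGFP clone, with -1.31 and 0.31. For both genes the Oct4-EGFP clone read highest, and its indirect ratio over EGFP was 1.88 for Fzd8 and 1.61 for Fzd4. Fzd4 is dim, and its software ratio over EGFP was 1.12.

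Fzd9 had 342 in the Nr5a2-EGFP clone against 595 in the Oct4-EGFP clone, and 328 against 185 in the EGFP clone. The Nr5a2-EGFP clone lay between the others, at log2 ratios of -0.76 and 0.50, and only Oct4-EGFP over EGFP passed the threshold, at 1.26. Fzd10 had 633 in the Nr5a2-EGFP clone against 2096 in the Oct4-EGFP clone, and 551 against 1191 in the EGFP clone. They gave log2 ratios of -1.70 and -1.04, so the Nr5a2-EGFP clone read lowest, but the ratio over EGFP was -0.75 with the Nr5a2-EGFP level of the Oct4 array and -0.84 with median centring.

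Fzd5, which the mouse needs for vessels of the yolk sac and placenta, had 2 probes that disagreed. The brighter had 3473 in the Nr5a2-EGFP clone against 8061 in the Oct4-EGFP clone, and 2768 against 2462 in the EGFP clone, with log2 ratios of -1.25 and 0.11. The dimmer had 1533 in the Nr5a2-EGFP clone against 1871 in the Oct4-EGFP clone, and 1703 against 528 in the EGFP clone, with -0.35 and 1.49. Thus the Oct4-EGFP clone read at least 2-fold above the EGFP clone at both probes (1.36 and 1.84), while the place of the Nr5a2-EGFP clone between them depended on the probe.

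Of the genes with several measured probes, Fzd7 had the widest disagreement. Its brighter probe had 5382 in the Nr5a2-EGFP clone against 3088 in the EGFP clone, and 4308 against 2990 in the Oct4-EGFP clone, with log2 ratios of 0.78 and 0.50. Its dimmer probe, 1825 bases away, had 618 in the Nr5a2-EGFP clone against 1785 in the EGFP clone, and 532 against 559 in the Oct4-EGFP clone, with -1.44 and -0.13. The sign over EGFP was thus opposite at the probes, and no direction is given for Fzd7. The brighter probe of Fzd2 had -0.30 for Oct4-EGFP over EGFP and the dimmer -1.44.

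The remaining receptor genes at their brightest probes were within 2-fold in every comparison. Fzd6 was the nearest to the threshold in the direct comparisons, at 0.93 over EGFP and 0.90 over Oct4-EGFP. It passed the threshold in both with the software's ratio (1.09 and 1.06) and with the value table (1.09 and 1.07). Over EGFP it also did so with median centring and with the other reading (1.21). Fzd1 and Fzd3 had -0.03 and -0.44 over EGFP, and 0.22 and -0.45 over Oct4-EGFP. The Nr5a2-EGFP readings of Fzd1 lay 0.87 apart. With the other reading Fzd1 had 1.09 over Oct4-EGFP, and from the Cy3 levels alone -1.11 for Oct4-EGFP over EGFP. The co-receptor genes Lrp5 and Lrp6 had 0.32 and -0.37 over EGFP, and 0.11 and -0.75 over Oct4-EGFP. Of 12 genes with more than 1 probe, 9 could be compared at 2 or more measured probes over EGFP and 10 in each of the other comparisons. Probes were at least 2-fold apart for Fzd5 and Fzd7 over EGFP, for 0 of 10 over Oct4-EGFP, and for Fzd2 and Fzd7 in the indirect comparison.

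**Figure D2:**
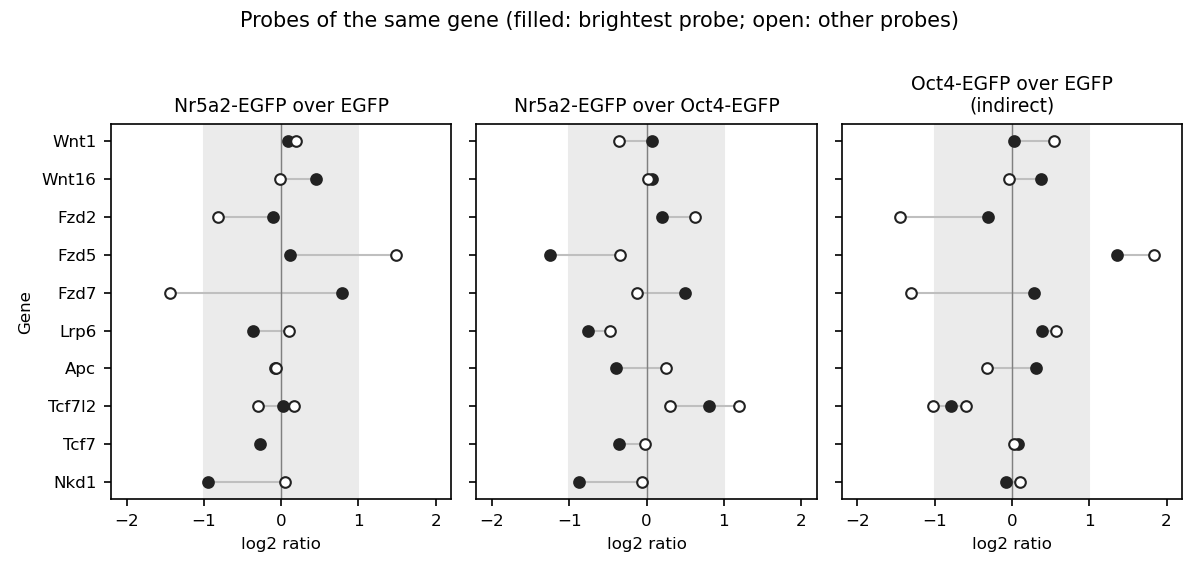
Log2 ratios (horizontal axis) at each measured probe of the 10 Wnt pathway genes with several measured probes, filled points for the brightest probe of a gene and open points for the others, in the 3 comparisons. The grey band spans less than 2-fold. The probes of Fzd7 lie on opposite sides of 0 over EGFP, at 0.78 and -1.44, while those of Fzd5 lie on the same side for Oct4-EGFP over EGFP.

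The secreted inhibitors held the largest ratios of the pathway in the direct comparisons. Dkk1, which binds Lrp5 and Lrp6 and keeps them from the Wnt receptor complex, read higher in the Nr5a2-EGFP clone than in either other clone, by at least 2-fold. Its processed signal was 18799 in the Nr5a2-EGFP clone against 735 in the Oct4-EGFP clone, and 25680 against 3783 in the EGFP clone. The log2 ratios were 4.50 over Oct4-EGFP (22.6-fold) and 2.70 over EGFP (6.52-fold), and the repeated Cy5 readings lay 0.17 apart. The EGFP clone lay between the others, with -1.79 for Oct4-EGFP over EGFP, and no 2 of the clones were within 2-fold of each other.

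Sfrp2 went the other way. The Sfrp proteins carry a Frizzled-like cysteine-rich domain and bind Wnts outside the cell. Sfrp2 had 791 in the Nr5a2-EGFP clone against 4543 in the Oct4-EGFP clone, and 794 against 3634 in the EGFP clone. Its log2 ratios were -2.48 (5.58-fold lower) and -2.10 (4.28-fold lower), while Oct4-EGFP over EGFP was 0.38, so the Nr5a2-EGFP clone stood apart from both others.

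Sfrp1 had 1089 in the Nr5a2-EGFP clone against 3794 in the Oct4-EGFP clone, and 945 against 1862 in the EGFP clone. It had the same order of clones as Sfrp2, with log2 ratios of -1.81 and -0.96, the second just inside the threshold. Sfrp4 had 725 in the Nr5a2-EGFP clone against 1870 in the Oct4-EGFP clone, and 630 against 317 in the EGFP clone. Its order differed: the EGFP clone read lowest, with -1.35 over Oct4-EGFP, 0.82 over EGFP and 2.16 for Oct4-EGFP over EGFP.

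Sfrp5, by contrast, was within 2-fold throughout, at 0.33 over EGFP and 0.31 over Oct4-EGFP. Dkk3, a divergent member of the Dkk family, had 1764 in the Nr5a2-EGFP clone against 4621 in the EGFP clone, and 1444 against 2522 in the Oct4-EGFP clone. Its log2 ratios were -1.39 and -0.83, so the Nr5a2-EGFP clone read lowest and only the first passed the threshold. Of the 6 measured inhibitor genes, then, the Nr5a2-EGFP clone read at least 2-fold above the EGFP clone for 1 and below it for 2. The shares of all genes were 3.35% and 5.07%. It read at least 2-fold above the Oct4-EGFP clone for 1 and below it for 3, where 4.55% and 7.11% of all genes were. Sfrp4 over EGFP also passed the threshold with the other Nr5a2-EGFP reading (1.08) and with median centring (1.00).

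**Figure D3:**
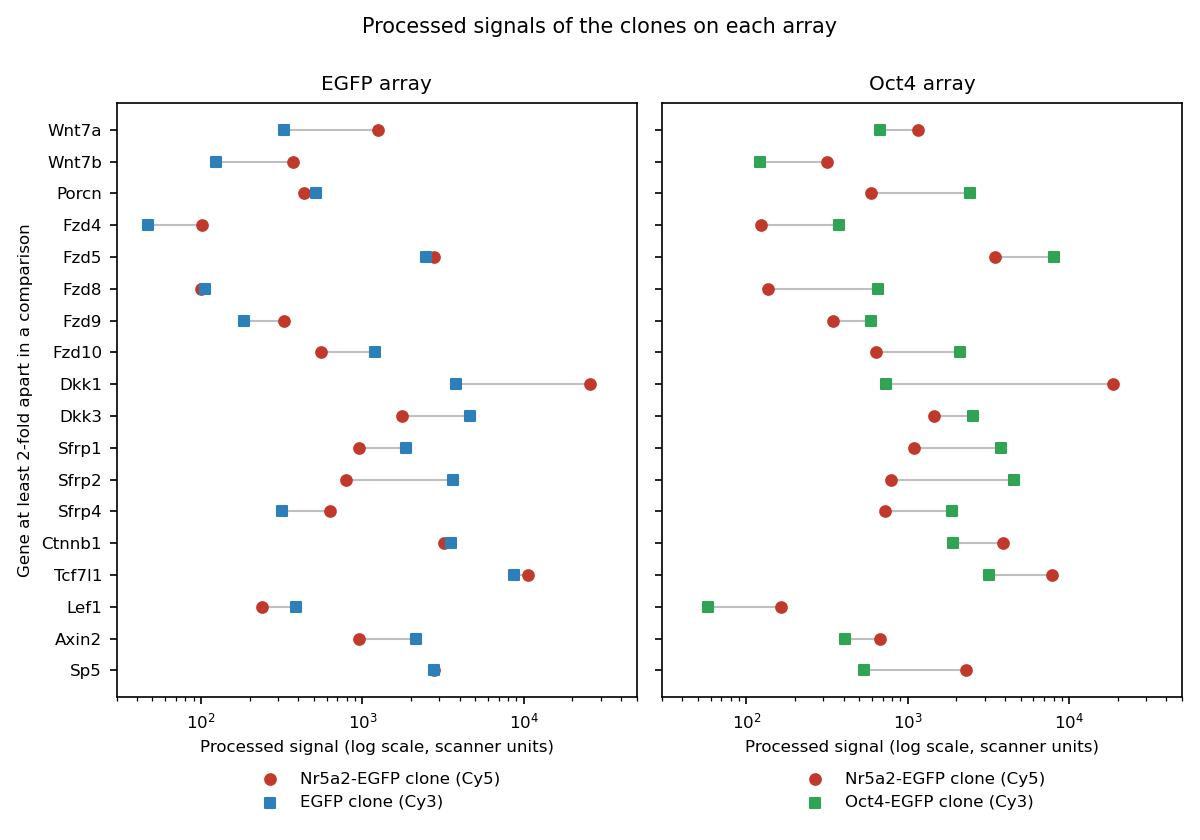
Processed signals in scanner units (horizontal axis, log scale) of the 18 Wnt pathway genes at least 2-fold apart in a comparison, on the EGFP array and on the Oct4 array, red circles for the Nr5a2-EGFP clone, green squares for the Oct4-EGFP clone and blue squares for the EGFP clone. Each point is 1 reading of the brightest probe. The lines are longest for Dkk1, which had 25680 against 3783 on the EGFP array and 18799 against 735 on the Oct4 array.

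Inside the cell, the genes of the destruction complex were within 2-fold: Axin1 had 0.26 over EGFP and -0.04 over Oct4-EGFP, and Apc -0.08 and -0.39. Ctnnb1, which encodes beta-catenin, had 3880 in the Nr5a2-EGFP clone against 1919 in the Oct4-EGFP clone, and 3210 against 3551 in the EGFP clone. This gave log2 ratios of 0.96 and -0.16, and the indirect ratio of Oct4-EGFP over EGFP was -1.11. The Oct4-EGFP clone read lowest, but by less than 2-fold, -0.64, from the Cy3 levels alone. Over Oct4-EGFP, Ctnnb1 passed the threshold with the software's ratio (1.02), the value table (1.02) and median centring (1.03).

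Of the 4 TCF/LEF genes, 3 read lowest in the Oct4-EGFP clone, not all of them past the threshold. Tcf7l1, mainly a repressor in ES cells, had 7876 in the Nr5a2-EGFP clone against 3208 in the Oct4-EGFP clone, and 10617 against 8679 in the EGFP clone, with log2 ratios of 1.27 and 0.31. Lef1, an activator, had 163 in the Nr5a2-EGFP clone against 57.6 in the Oct4-EGFP clone, and 240 against 386 in the EGFP clone, with 0.83 and -0.56. The indirect ratios of Oct4-EGFP over EGFP were -0.96 for Tcf7l1, just inside the threshold, and -1.39 for Lef1, beyond it. That of Tcf7l1 passed the threshold with the software's ratio, the value table and the Cy3 levels alone (-1.11). The files place the 60 bases of the Lef1 probe over a stretch of 18162 bases of mm9 (chr3:130907851-130926012).

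Tcf7l2 was saturated in Cy5 on both arrays at its brightest probe, so no fold is given there. The processed signals were 53500 in the Nr5a2-EGFP clone against 36813 in the Oct4-EGFP clone, and 68488 against 80689 in the EGFP clone, with the Nr5a2-EGFP values cut short by saturation. The log2 ratios depended on the scaling, at 0.81 with loess and 0.54 with the software's ratio over Oct4-EGFP, and 0.03 and -0.24 over EGFP. Its other probes, which carry other transcript accessions of the gene in the files and were not saturated, had log2 ratios of 1.20 and 0.30 over Oct4-EGFP, 0.17 and -0.30 over EGFP, and -1.02 and -0.60 for Oct4-EGFP over EGFP. At the brighter of these, Tcf7l2 thus passed the threshold in both comparisons with the Oct4-EGFP clone. Tcf7, another activator, was within 2-fold, at -0.35 over Oct4-EGFP, -0.28 over EGFP and 0.08 for Oct4-EGFP over EGFP.

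Of the 3 measured targets, Axin2 and Sp5 read lowest in the Oct4-EGFP clone, and Nkd1 in the Nr5a2-EGFP clone at the probe that stands for it. Axin2, a negative feedback regulator and a widely used readout of the canonical pathway, had 955 in the Nr5a2-EGFP clone against 2142 in the EGFP clone, and 669 against 409 in the Oct4-EGFP clone. Its log2 ratios were -1.11 over EGFP and 0.57 over Oct4-EGFP, with -1.68 for Oct4-EGFP over EGFP, so the EGFP clone read highest and the Oct4-EGFP clone lowest. Its dimmer probe was not well above background in any reading. With the mean over both probes the ratio over EGFP was -0.51 and the indirect ratio -0.89.

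Sp5, a zinc-finger gene that beta-catenin activates directly, had 2292 in the Nr5a2-EGFP clone against 536 in the Oct4-EGFP clone, and 2764 against 2762 in the EGFP clone. Its log2 ratios were 1.88 and -0.05, and Oct4-EGFP over EGFP was -1.94. The Oct4-EGFP clone stood apart, while the other clones lay within 2-fold. Nkd1, a feedback inhibitor that binds Dishevelled, had 97.9 in the Nr5a2-EGFP clone against 263 in the EGFP clone, and 90.8 against 223 in the Oct4-EGFP clone, at the probe with the higher mean intensity over the 4 readings. Its log2 ratios there were -0.95 over EGFP and -0.87 over Oct4-EGFP, and -1.42 and -1.30 with the software's ratio. The other probe had 141 in the Nr5a2-EGFP clone against 133 in the EGFP clone, and 137 against 141 in the Oct4-EGFP clone, with 0.05 and -0.06, so that the ratio depended on the probe.

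The readings of the Nr5a2-EGFP clone give the only measure of error for these genes. Their log2 difference, EGFP array minus Oct4 array, lay between -0.67 (Wnt5b) and 0.88 (Wnt10b) over the 44, and 35 of the 44 were within the SD of 0.30 found over all genes. None of the 44 differed by 2-fold or more, as 5 ES cell markers did. This spread covers at least hybridisation. Whether the Cy5 samples were labelled separately or came from separate cultures is not stated in the sources used here. Past the 2-fold threshold by less than that SD were 3 of the 7 ratios over EGFP (Wnt7b, Fzd10 and Axin2), 2 of the 11 over Oct4-EGFP (Fzd5 and Tcf7l1) and 2 of the 11 for Oct4-EGFP over EGFP (Fzd9 and Ctnnb1).

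**Figure D4:**
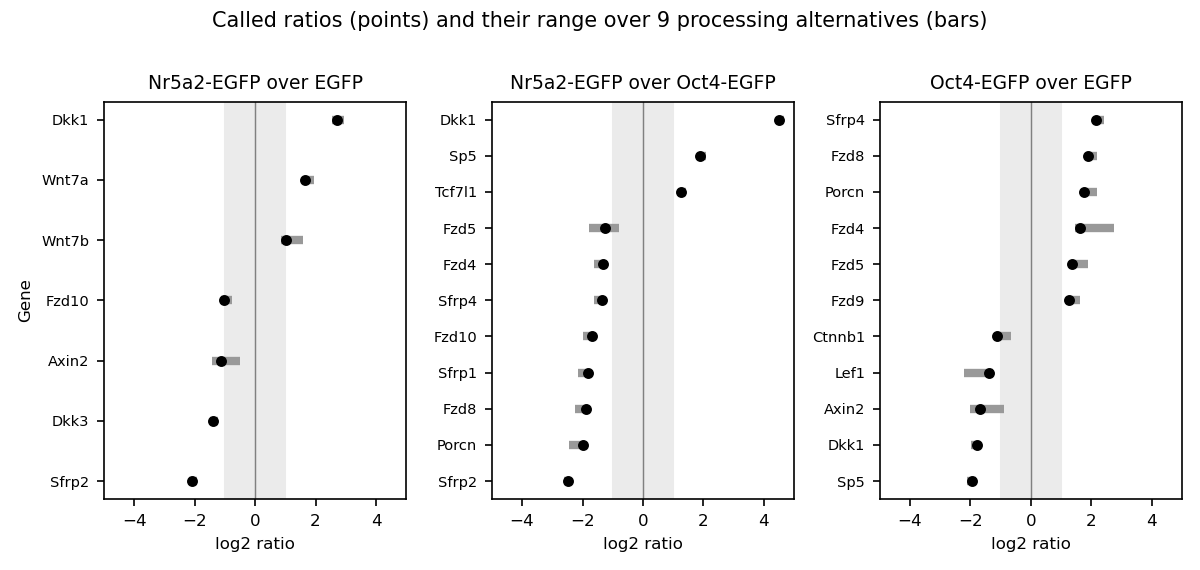
Log2 ratios (horizontal axis) of each Wnt pathway gene that was at least 2-fold apart, in the 3 comparisons, with points for the reported ratio and grey bars for the range over 9 other ways of processing the same spots, 3 of which leave these ratios as they are. The pale band spans less than 2-fold. All bars stay on their side of 0, and those of Wnt7b, Fzd10 and Axin2 (over EGFP), Fzd5 (over Oct4-EGFP), and Axin2 and Ctnnb1 (Oct4-EGFP over EGFP) reach into the band.

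A second list of 69 further Wnt pathway genes (R-spondins and their receptors, glypicans, Dishevelled, kinases, co-activators and other targets) was described in the same way, and 67 were on the array. Over EGFP, the Nr5a2-EGFP clone was above the threshold for 3 of 60 measured genes and below it for 2, and their median was 0.16. Of all genes, 3.35% were above it and 5.07% below. The higher ones were Cby1 (1.54), which encodes a beta-catenin antagonist, the homeobox target gene Cdx1 (1.23) and the co-activator gene Pygo2 (1.07). The lower ones were the cyclin D1 gene Ccnd1 (-2.34) and Rspo1 (-2.15), an R-spondin that enhances Wnt signals.

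Over Oct4-EGFP, 7 of 60 were above the threshold in the Nr5a2-EGFP clone and 6 below it, and their median was 0.06. Of all genes, 4.55% were above it and 7.11% below. The largest were the glypican gene Gpc3 (1.85), Sp8 (1.67), which belongs to the same zinc-finger family as Sp5, Myc (1.66) and Id2 (1.34). The lowest were Ptk7 (-2.27), a receptor-like gene of planar polarity, Rspo1 (-2.23), the R-spondin receptor gene Lgr4 (-1.51) and Ccnd1 (-1.26). Rspo1 and Ccnd1 thus read at least 2-fold lower in the Nr5a2-EGFP clone than in either other clone, as did Sfrp2 and Fzd10.

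For Oct4-EGFP over EGFP, 4 of 62 were higher and 6 lower, with a median of 0.06, where 6.4% and 5.78% of all genes were. The higher ones were Cdx1 (2.41), Ptk7 (2.32), Cby1 (1.32) and Pygo2 (1.12), and the lowest Gpc3 (-2.70), Sp8 (-1.51), Id2 (-1.36) and Myc (-1.20). Brachyury (T), a target used as a marker of the primitive streak, was not well above background in any reading.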

How the data were processed

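RNA of 3 clones was compared on 2 two-colour arrays. Spot intensity values come from the deposited scanner files, written by Agilent Feature Extraction 10.7.3.1 per the file headers (9.3.2.1 per the submitters' processing notes), with probe positions on mm9. Processed intensities and their log10 ratio of Cy5 over Cy3 are the software's, per the file headers, background-subtracted and dye-normalized. A value table that the authors also deposited holds log2 ratios. They followed the software's ratio at r = 0.997 on both arrays (medians 0.03 and 0.05), which settles their direction. For Dkk1 they were 2.75 over EGFP and 4.68 over Oct4-EGFP, beside 2.76 and 4.68 with the software's ratio. For Tcf7l2, saturated at its brightest probe, they were 0.03 and 0.78, beside -0.24 and 0.54.

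From the deposited mean signals and local backgrounds, normexp (offset 50) and loess within arrays were run in limma 3.58.1, without control and outlier-flagged spots (530 and 523 of 43020). Aquantile gave single-channel levels. The brightest probe stood for a gene. A gene was measured if well above background in at least 1 channel compared. All 64 probes were single spots. Among the 399 probes printed 10 times, the median SD of the log2 ratio was 0.068 (EGFP array) and 0.066 (Oct4 array). Saturated spots (1213 and 1245 in Cy5, 133 and 335 in Cy3) were kept, and no fold is given for a member at one. The number of arrays limits the precision.

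The genes, lists and size rule were chosen with earlier results of these data known. Named are all 51 genes, of the further list the 4 most extreme called genes each way, and of the ES cell and trophoblast lists the 2 most extreme. All 64 accessions matched RefSeq under the same symbol. On simulated arrays of 39429 probes, 36% (EGFP array) and 38% (Oct4 array) of 50 probes at 2-fold and 94% and 98% at 3-fold were called. A change of 2-fold lies on the threshold itself. The noise was set by hand, a smaller share of probes was changed than in the data, and both directions were equally likely. The indirect comparison was not simulated, so these shares need not hold for the data. Alternatives were the software's ratio, no background correction, median centring, the mean over probes, other filters on dim probes, the other Nr5a2-EGFP reading (Cy3 levels in the indirect comparison), leaving out members whose readings were 2-fold apart, and the value table. The other reading for the marker lists was added after the data were seen.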

Additional observations from a re-analysis of the deposited data

How the results depend on the processing

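No paired analysis was possible because each pair of clones was read on 1 array and no test was run. Of 9 alternatives, 3 (both filters on dim probes, and leaving out members whose readings were 2-fold apart) could not change any of the 29 member values at least 2-fold apart. The other 6 gave 174 values for them, 149 of which differed from the reported one. Among the 6, the software's ratio and the value table held nearly the same numbers (r = 0.997), so they are not separate checks. All 174 kept their sign and 166 stayed past 2-fold. Below it fell Fzd10 (-0.84) and Axin2 (-0.92) over EGFP with median centring, Axin2 over EGFP (-0.51), Axin2 for Oct4-EGFP over EGFP (-0.89) and Fzd5 over Oct4-EGFP (-0.80) with the mean over probes, and Wnt7b (0.86) and Fzd10 (-0.75) over EGFP and Ctnnb1 for Oct4-EGFP over EGFP (-0.64) with the other Nr5a2-EGFP reading or the Cy3 levels.

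Over EGFP, the 3 higher and 4 lower members became 6 and 5 with the software's ratio and with the deposited value table, 5 and 2 with median centring, and 5 and 4 with the other reading. Over all genes the shares, 3.35% higher and 5.07% lower as reported, were then 6.87% and 8.18% (software's ratio), 6.93% and 8.08% (value table), 5.99% and 3.44% (median centring), and 4.89% and 6.51% (other reading). Median centring left the median of all genes on the EGFP array at 0.16, beside 0.03 with loess, and the members' median was then 0.16. That median was 0.0917 with the software's ratio, -0.0091 with the mean over probes and 0.19 with the other reading. Over Oct4-EGFP, the 3 higher and 8 lower members became 7 and 9 with the software's ratio and with the value table, 5 and 8 with median centring, and 7 and 8 with the other reading. The shares of all genes, 4.55% and 7.11% as reported, were then 7.51% and 9.96%, 7.79% and 9.63%, 5.72% and 6.27%, and 6.29% and 8.59%. The members' median was -0.003 with the mean over probes and -0.16 with the other reading. For Oct4-EGFP over EGFP, the 6 higher and 5 lower members became 9 and 6 with the software's ratio and 8 and 6 with the value table. They became 8 and 5 with median centring, and 7 and 7 from the Cy3 levels. The shares of all genes, 6.4% and 5.78% as reported, were then 9.85% and 9.39%, 9.26% and 9.48%, 6.99% and 4.79%, and 8.56% and 7.69%. The members' median was 0.29 with median centring, 0.11 with the mean over probes, 0.0759 with no filter and 0.27 from the Cy3 levels. The causes were not tested. With 1 array per pair of clones, no value carries an error between cultures. The dim genes Fzd4 (over EGFP) and Lef1 (over Oct4-EGFP), reported at 0.31 and 0.83, had 1.12 and 1.53 with the value table, and 0.55 and 0.82 with no background correction.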
